A study of Mus musculus with 5 samples.

Results

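The sine oculis homeobox genes Six2 to Six6 and the eyes absent genes Eya1 to Eya4, which work together in development, are 9 protein-coding genes out of 22350 protein-coding genes on chromosomes 1 to 19 and X of the mouse mm9 annotation (GENCODE vM1). They were taken by name, and the start site (the 5′ end of the gene) and the body of each gene were set against peaks of trimethylated histone H3 lysine 27 (H3K27me3). The mark was mapped by ChIP-Seq, in which antibody-bound chromatin is sequenced, in mouse embryonic fibroblasts (MEFs) carrying a lentivirus for stable expression of H3.3 K27R, H3.3 K27M or human EZHIP. H3.3 K27M and EZHIP inhibit PRC2, the complex that places H3K27me3, and H3.3 K27R, an arginine mutant of the same residue, served as the reference. By the paper's methods, the MEFs of the study came from an embryo with loxP sites around exons of Eed (a floxed allele). The paper derived its isogenic H3.3 K27M and EZHIP lines from these cells, so the floxed allele is not limited to the parental library. The series held 5 libraries, 1 per group, and the remaining ones (the parental MEFs with the floxed Eed allele, and an Eed deletion line that is a single clone) were not analysed here. How the lines that carry H3.3 K27R, H3.3 K27M or EZHIP were cloned is not stated in the labels.

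The sine oculis proteins are homeodomain transcription factors. EYA proteins are their partners: they have no DNA-binding domain of their own, are brought to target genes by the homeodomain factors, and act there as transcriptional activators, with a tyrosine phosphatase domain. Together with PAX factors and DACH corepressors they form a network that is used repeatedly in the development of the eye, ear, kidney and skeletal muscle. In cells where such developmental regulators are silent, PRC2 commonly binds the CpG islands at their promoters, and H3K27me3 spreads from there into broad domains.

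Each list was 1 library and gave positions and no read counts. Depth was thus unknown, and no value below could be set against the spread between replicates. All values describe these libraries, and no test was possible. Of 9 fibroblast marker genes, 1 (Pdgfra) had its start site in a K27R peak, against 4 of 5 neural, 2 of 4 muscle and 2 of 4 epithelial markers. A peak list gives no expression, so these markers do not show which genes the cells used. The 3 lists differed in the gaps they left: neighbouring peaks were at least 5200 bp apart in K27M, 1200 bp apart in EZHIP and 0 bp apart in K27R. Numbers and widths of the members' peaks were therefore also taken after merging all 3 lists across gaps of up to 10000 bp.

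The sequences below show the 2 kinds of position between which the members differed. In each, capitals mark the CG dinucleotide, of which CpG islands are made and which reads the same on both strands. The promoters are the 250 bases before the start site, 5′ to 3′ in the direction of the gene, in mm9. RefSeq promoters (GRCm38.p6 table) were available for 7 of the 9 members and were located in mm9 by an exact match. They were lacking for Eya1 and Eya2, whose start sites and promoters rest on the GENCODE models alone. Six2 (whose RefSeq and GENCODE starts are the same base) and Six3 kept a peak over the start site in all 3 lists. Eya4 shows a promoter rich in CG that lay in no peak. Eya2 had a peak over its GENCODE start site in K27R alone. The last sequence is the middle of the only stretch within the annotated Eya2 gene that both inhibitor lists still held.
Six2 promoter, chr17:86087595-86087844, minus strand: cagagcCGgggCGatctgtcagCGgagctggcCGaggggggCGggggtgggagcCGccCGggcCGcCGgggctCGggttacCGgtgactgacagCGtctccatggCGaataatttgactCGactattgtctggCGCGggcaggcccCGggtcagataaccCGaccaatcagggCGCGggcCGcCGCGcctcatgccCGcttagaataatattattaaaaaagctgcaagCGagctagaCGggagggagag
Six3 promoter at the RefSeq start, chr17:86019924-86020173, plus strand: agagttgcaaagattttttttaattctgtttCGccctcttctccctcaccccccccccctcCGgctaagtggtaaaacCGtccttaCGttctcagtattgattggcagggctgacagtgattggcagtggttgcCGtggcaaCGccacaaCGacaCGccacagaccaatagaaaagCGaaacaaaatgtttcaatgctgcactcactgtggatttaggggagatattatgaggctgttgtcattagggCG
Eya4 promoter, chr10:23069702-23069951, minus strand: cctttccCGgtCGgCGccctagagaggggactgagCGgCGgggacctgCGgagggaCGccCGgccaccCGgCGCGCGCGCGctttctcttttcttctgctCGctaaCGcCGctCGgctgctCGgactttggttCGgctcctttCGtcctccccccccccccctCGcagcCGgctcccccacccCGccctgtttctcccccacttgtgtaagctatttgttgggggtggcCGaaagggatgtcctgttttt
Eya2 promoter, chr2:165480548-165480797, plus strand: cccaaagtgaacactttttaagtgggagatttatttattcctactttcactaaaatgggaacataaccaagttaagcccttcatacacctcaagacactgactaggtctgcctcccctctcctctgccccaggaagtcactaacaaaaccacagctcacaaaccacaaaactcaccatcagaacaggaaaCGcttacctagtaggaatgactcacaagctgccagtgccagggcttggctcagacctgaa
Eya2 intronic stretch, chr2:165554651-165554950, plus strand: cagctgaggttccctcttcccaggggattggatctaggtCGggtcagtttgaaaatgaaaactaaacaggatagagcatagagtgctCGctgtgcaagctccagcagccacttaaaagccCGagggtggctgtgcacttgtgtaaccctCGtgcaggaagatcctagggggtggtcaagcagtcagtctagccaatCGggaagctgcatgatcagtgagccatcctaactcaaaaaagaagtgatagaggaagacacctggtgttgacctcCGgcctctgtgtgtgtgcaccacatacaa
The Six2 promoter held 26 CG and the Eya4 promoter 25, against 10 in the Six3 promoter and 1 in the Eya2 promoter. The 300 bases of the intronic stretch held 6. Over all 22350 promoters of this length the median was 8 CG, with quartiles of 3 and 18, and 92.5% held at least 1.

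H3K27me3 peaks in K27R cells lay over 4 of the 9 genes, 3 of the 5 sine oculis genes and 1 of the 4 Eya genes. The start sites of Six2, Six3, Six6 and Eya2 were inside K27R peaks, as were those of 30.1% of all protein-coding genes. In K27M cells 3 of the 9 start sites remained in a peak (9.02% of all genes), and in EZHIP cells also 3 (7.73%). They belonged to Six2, Six3 and Six6 in both lists, a state found for 6.60% of all genes. Of the genes whose start site lay in a K27R peak, 29.9% kept a K27M peak there and 25.6% an EZHIP peak. Eya2 was the member with a K27R peak and neither of the others at its GENCODE start site. Counted by gene body, 4 of 9 members overlapped a K27R peak (36.1% of all genes), 4 a K27M peak (11.5%) and 4 an EZHIP peak (10.6%), since Eya2 held small peaks within the gene. The bodies of Six4, Six5, Eya1, Eya3 and Eya4 overlapped no peak in any list. With 9 genes, Six2 and Six3 under 1 K27R region, nothing particular to the families is read from these counts.

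The length covered in the 100 kb centred on each start site gave the same grouping. At Six3, which is required for the forebrain and eye, K27R peaks covered 100 kb, K27M peaks 81.8 kb and EZHIP peaks 47.8 kb. At Six2, which maintains nephron progenitors in the kidney, they covered 100 kb, 57.6 kb and 24.2 kb. At Six6, a regulator of retina, hypothalamus and pituitary, they covered 86.1 kb, 59.2 kb and 66.6 kb. These 3 genes kept between 24.2 and 81.8 kb, and of the 3 Six6 had more cover in EZHIP than in K27M. At Eya2 the 100 kb of K27R cover fell to 0 kb in K27M and 2.6 kb in EZHIP. Six5 had 3.0 kb in K27R and none in the inhibitor lists, and Six4, Eya1, Eya3 and Eya4 had 0 kb in all 3 lists. The median over the 9 members was 3.0 kb for K27R and 0 kb for either inhibitor, against 14.8, 0 and 0 kb over all genes. The members' means were 43.2, 22.1 and 15.7 kb, against 29.1, 3.99 and 3.27 kb over all genes.

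**Figure D1:**
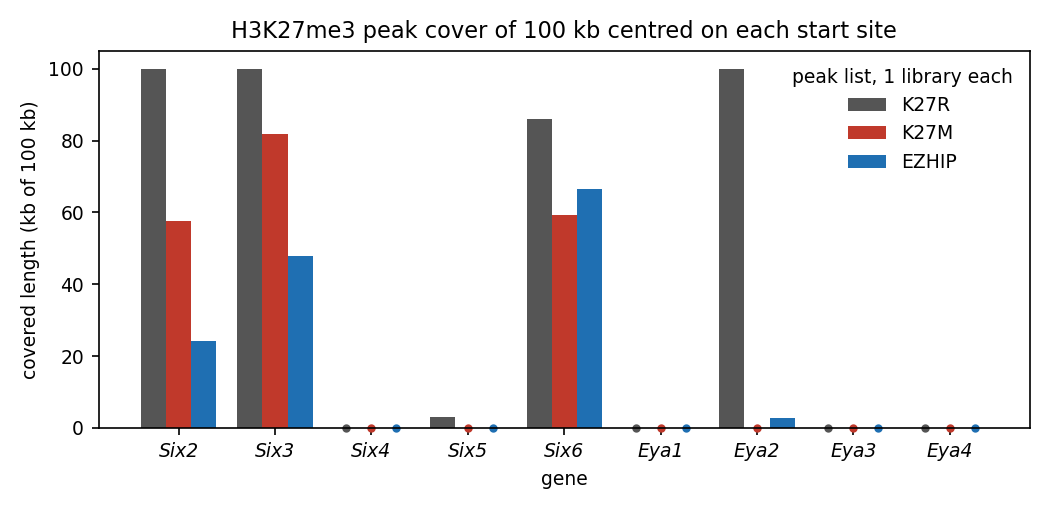
Bars give the length covered by H3K27me3 peaks (kb, of 100 kb centred on the start site) for each of the 9 genes in the K27R, K27M and EZHIP lists, 1 library each, and a dot on the axis marks 0. Six2, Six3 and Six6 keep between 24.2 and 81.8 kb in the inhibitor lists, Eya2 drops from 100 kb to 0 and 2.6 kb, and the other 5 genes have at most 3.0 kb.

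Among the 6735 genes with a start site in a K27R peak, the median cover of the same 100 kb was 71.6 kb by K27R peaks, 1.47 kb by K27M peaks and 1.2 kb by EZHIP peaks. Cover as high as that at Six3 was reached by 1.5% of these genes in K27M and 3.56% in EZHIP. For Six2 these shares were 3.77% and 10.8%, and for Six6 3.44% and 1.26%. Of the 6735 genes, 29.9% kept a K27M peak over the start site and 25.6% an EZHIP peak. Six2, Six3 and Six6 were grouped by such peaks, so a rank above most of the 6735 genes was largely given by the grouping. As much EZHIP cover as at Eya2 or more was found at 45.8% of the 6735 genes.

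Six2 and Six3 lie on chromosome 17 with start sites 74.6 kb apart and face each other (Six3, ENSMUSG00000038805.7, 86012948 to 86031153, plus strand; Six2, ENSMUSG00000024134.9, 86083608 to 86087594, minus strand). Both lay in the same K27R region (85695401 to 86385000), which was 689.6 kb wide, and 33 of the 12845 K27R regions were wider. The only annotated start sites in it were those of Six3, Six2 and Six3os1, a long non-coding RNA read from the strand opposite to Six3, whose H3K27me3 cannot be told apart from that of Six3. In K27M 8 peaks (5 after merging) covered 215.8 kb of the region (31.3%). In EZHIP 4 peaks (also 4 after merging) covered 104.4 kb (15.1%), and every base of these lay inside K27M peaks. Over all K27R regions with a residual peak, the median share kept was 15.2% in K27M (2117 regions) and 11.4% in EZHIP (2180 regions). These regions were not matched by width, and the median width of all K27R regions was 16 kb.

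The peak over the Six3 start site spanned 76.6 kb in K27M (85989201 to 86065800) and 47.8 kb in EZHIP (86000401 to 86048200). It reached 23.7 kb upstream and 52.9 kb downstream of the start in K27M, and 12.5 and 35.3 kb in EZHIP, so that in both it covered the whole gene and ran further on its 3′ side. All 3 annotated Six3 transcript starts, the furthest 7.42 kb into the gene, lay in these peaks. The peak over the Six2 start site was narrower, with 29.4 kb in K27M (86071201 to 86100600) and 13.6 kb in EZHIP (86077801 to 86091400). The Six2 peak also covered the whole gene, from 13.0 kb upstream to 16.4 kb downstream of the start in K27M and from 3.81 to 9.79 kb in EZHIP. Between the Six3 and Six2 peaks a gap of 5.4 kb was left in K27M and of 29.6 kb in EZHIP. With peaks up to 10000 bp apart merged, the K27M list had 1 peak of 125.2 kb over both genes while the EZHIP peaks were unchanged at 47.8 and 13.6 kb.

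Residual H3K27me3 in this region was not limited to the genes. The widest K27M peak, of 86.6 kb, lay from 171.9 to 85.3 kb upstream of Six3, and an EZHIP peak of 41.6 kb (161.1 to 119.5 kb upstream) lay inside it. No annotated start site was within either peak, although both overlapped the body of 1700106N22Rik, and each held 1 CpG island of 357 bp. Upstream of Six2, a K27M peak of 9.2 kb and an EZHIP peak of 1.4 kb lay 61.2 to 70.4 kb from the start, without an island. The remaining 4 K27M peaks (1.6 to 7.6 kb wide) lay between 78.5 and 29.9 kb upstream of Six3 and had no EZHIP counterpart. Of 13 CpG islands in the region, 12 lay in peaks of both lists, 8 of them in the Six3 peak and 3 in the Six2 peak. The island outside was 893 bp long and 111.8 kb upstream of Six2.

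**Figure D2:**
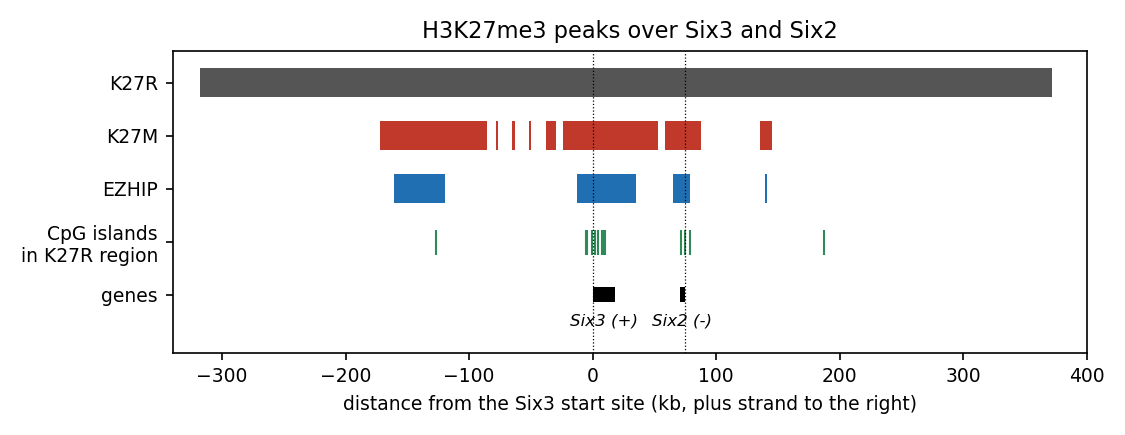
The map shows the K27R region (grey), K27M peaks (red), EZHIP peaks (blue), CpG islands of the region (green ticks) and the gene bodies of Six3 and Six2 (black, start sites dotted) by distance from the Six3 start site in kb. EZHIP peaks sit inside K27M peaks at Six3, at Six2 and in the block more than 100 kb upstream of Six3, and most of the 689.6 kb K27R region is free of both.

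Six6 (ENSMUSG00000021099.3) lies on chromosome 12 from 74040932 to 74045886 on the plus strand, in a K27R region of 169.8 kb (73907201 to 74077000). The start site of the protein-coding gene 4930447C04Rik, on the opposite strand, lies 0.888 kb into Six6, and its peaks cannot be separated from those of Six6. In K27M cells 4 peaks remained on 81.4 kb of the region (47.9%), and in EZHIP cells 10 peaks on 98.4 kb (57.95%), the highest shares of the 3 regions that held members. The inhibitor lists had 72.2 kb in common, which was 88.7% of the K27M and 73.4% of the EZHIP length. The order in cover was thus the reverse of that at Six2 and Six3. Of the 1680 K27R regions with peaks of both lists, EZHIP covered more in 30.8% and K27M more in 66.8%. After merging of neighbouring peaks the counts were 2 in K27M and 3 in EZHIP, so that the larger number of EZHIP peaks rested mostly on the gaps between neighbours. EZHIP still covered more of the Six6 region then, 118.2 kb against 96.0 kb.

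Over the Six6 start site itself the K27M peak was the wider one, with 57.4 kb (74002001 to 74059400) against 32 kb in EZHIP (74029801 to 74061800). This difference rested on how neighbours were joined, since merging gave widths of 79.0 and 77.0 kb. The K27M peak reached 38.9 kb upstream and 18.5 kb downstream, and the EZHIP peak 11.1 and 20.9 kb. Both held the island of 825 bp at the Six6 start and one of 692 bp beyond the gene. A further pair of overlapping peaks, 17 kb wide in K27M and 18.2 kb in EZHIP, lay between 93.9 and 75.1 kb upstream over no annotated gene and no CpG island. EZHIP peaks of 8.2, 6.6 and 2.8 kb had no K27M peak beside them. The third island of the region, of 377 bp, lay in the last of these.

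The K27R region ended 36.1 kb downstream of the Six6 start, and Six4 lay outside it. Six4, a regulator of skeletal muscle development, is on the same chromosome (ENSMUSG00000034460.6, 74201246 to 74214401, minus strand), with its start site 173.5 kb from that of Six6. The nearest peak to the Six4 start was at 137.4 kb (K27R), 155.0 kb (K27M) or 141.2 kb (EZHIP), in each case on the Six6 side. Six4 had an island of 1324 bp 249 bp from its annotated start, so that an island was present at a promoter that no list marked.

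**Figure D3:**
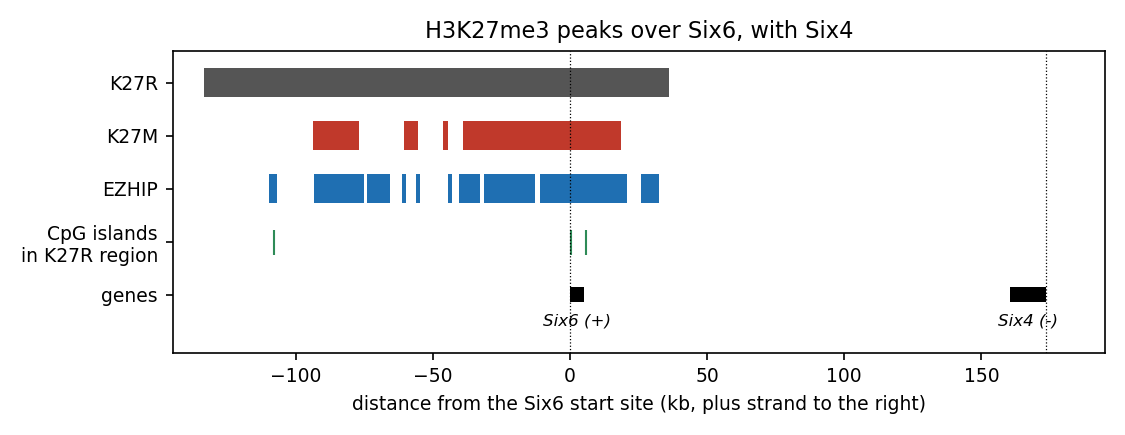
Peaks, CpG islands of the K27R region and gene bodies are drawn by distance from the Six6 start site in kb, with colours as in the map of Six3 and Six2. The K27R region ends 36.1 kb to the right of the Six6 start, Six4 lies beyond it without a peak, and the region holds 10 EZHIP and 4 K27M peaks as deposited, or 3 and 2 with gaps of up to 10000 bp merged.

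Eya2 (ENSMUSG00000017897.11, chromosome 2, 165480798 to 165597227, plus strand) was the only Eya gene under H3K27me3. Its K27R region of 254.2 kb (165344201 to 165598400) spanned 136.6 kb before the start, the whole gene of 116.4 kb, and 1.17 kb past its end. All 6 annotated Eya2 transcript starts lay in this region, and none of them lay in a K27M or EZHIP peak. In K27M cells 3 peaks remained on 22.0 kb of it (8.65%), and in EZHIP cells 4 peaks on 26.6 kb (10.5%). These were the lowest shares of the 3 regions that held members and lay below the medians of 15.2% and 11.4% given above. Those medians are over regions of all widths, most of them narrower, so nothing particular to Eya2 is read from them.

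The residual peaks of the Eya2 region lay away from the GENCODE start site. The widest ones were 15.6 kb in K27M (165415001 to 165430600) and 13.0 kb in EZHIP (165416801 to 165429800). They lay 50.2 to 65.8 and 51.0 to 64.0 kb upstream of the GENCODE start, over an island of 655 bp, with no gene annotated beneath in GENCODE vM1. That island was the only one of the region in both inhibitor lists. Within the gene, the K27M list had a peak of 1.2 kb (165554201 to 165555400) 73.4 kb from the start, in an intron. The EZHIP list had one of 6.6 kb around it (165552401 to 165559000), which overlapped 1 coding exon, and another of 2.6 kb in an intron 43.4 kb from the start. Peaks thus covered 1.03% of the gene body in K27M and 7.90% in EZHIP, against 100% in K27R. The K27M peak was at the minimum width found in that list (1.2 kb). The one island inside the gene, of 516 bp and 23.7 kb from the start, lay in neither list. The nearest island to the GENCODE start of Eya2 was this one, while every other member had an island within 755 bp of its start. Eya2 had no RefSeq start to set beside it. Whether the gene begins at another position, such as the 655 bp island upstream, was not tested.

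**Figure D4:**
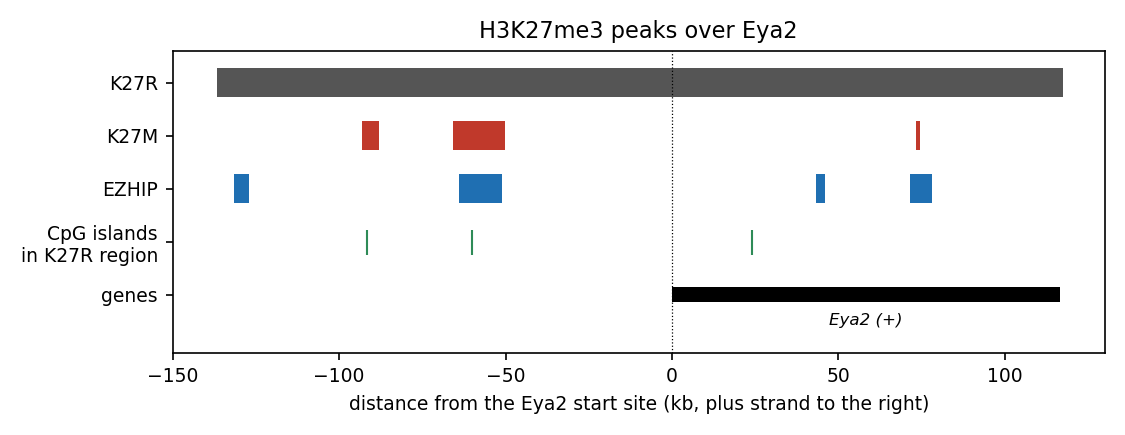
Peaks, CpG islands of the K27R region and the Eya2 gene body are drawn by distance from the Eya2 start site in kb. The K27R region covers the whole gene, the GENCODE start site is free of K27M and EZHIP peaks, and the widest residual peaks lie over an island about 60 kb upstream.

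The other 5 members had no H3K27me3 over the gene in any list. Eya1 (chromosome 1, 14159035 to 14300281, minus strand), mutated in branchio-oto-renal syndrome, was the furthest from the mark, with the nearest K27R peak 388.5 kb from its start and the nearest K27M and EZHIP peaks 1177 and 1179 kb away. Eya3 (chromosome 4, 132194902 to 132280680, plus strand) had its nearest K27R, K27M and EZHIP peaks at 156.1, 370.7 and 491.3 kb. Eya4 (chromosome 10, 22823974 to 23069701, minus strand), a gene of hereditary deafness and cardiomyopathy, had a K27R region of 348.4 kb that stopped 12.4 kb short of its 3′ end, 258.1 kb from its start. In K27M and EZHIP the nearest peaks to the Eya4 body were 19.8 and 29.97 kb away. Six5 (chromosome 7, 19679893 to 19683694, plus strand), which lies next to the myotonic dystrophy kinase gene, had a K27R peak of 3.0 kb 27.1 kb upstream and its nearest K27M and EZHIP peaks at 70.9 and 80.9 kb. For Eya1, Eya3, Eya4 and Six5 the inhibitor lists held no peak nearer than the nearest K27R peak.

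CG content did not separate marked from unmarked members. The 5 members in no list held 5 (Eya1), 14 (Six4), 13 (Six5), 15 (Eya3) and 25 (Eya4) CG in the 250 bases before the start, and the 3 members in all lists held 26 (Six2), 10 (Six3) and 16 (Six6). Over all genes in these states the medians were 10 CG (15607 genes) and 13 CG (1476 genes). Eya2, with 1 CG, stood beside a median of 4 for the 4476 genes with a start site in K27R peaks alone, and 92.5% of all promoters held as many. The Six3 count was 10 at either the GENCODE or the RefSeq start, which lies 7226 bp into the gene.

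**Figure D5:**
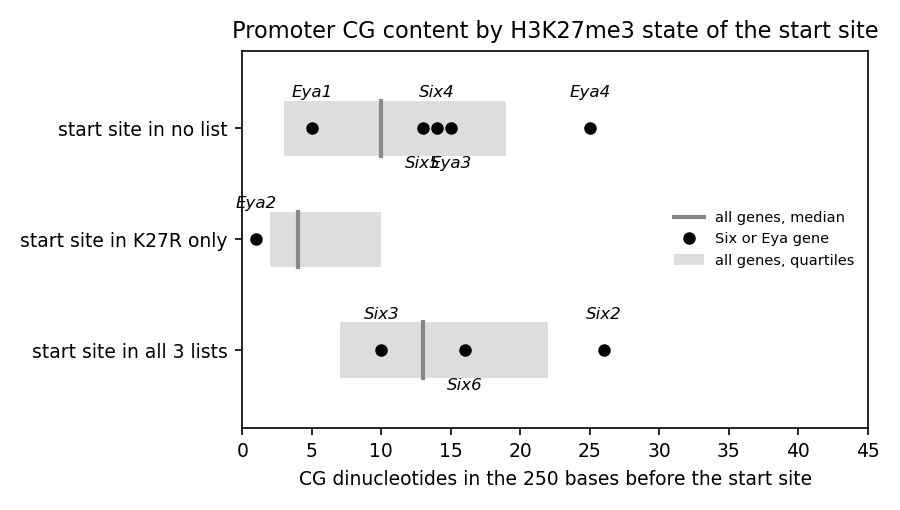
Points give the number of CG dinucleotides in the 250 bases before the GENCODE start site of each of the 9 genes, in rows by the lists that cover the start site, and grey boxes and lines give the quartiles and median of all genes of the same state. Members in no list range from 5 (Eya1) to 25 (Eya4), overlapping the 10 to 26 of members in all lists, and Eya2 has 1.

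Within the K27R regions, the DNA that kept the mark was compared with the DNA that lost it. In the Six2 and Six3 region, stretches in both inhibitor lists had 21.3 CG per kb, those in K27M alone 11.2 and those in neither 11.8. In the Eya2 region the densities were 20.99 CG per kb in both lists, 21.8 in K27M alone, 14.6 in EZHIP alone and 13.7 in neither. In the Six6 region they were lower throughout, with 12 in both, 6.20 in K27M alone, 10.6 in EZHIP alone and 8.59 in neither. In each region the shared stretches were richer in CG than those without a residual peak. Of the 19 islands in the 3 regions, K27M peaks held 16 and EZHIP peaks likewise 16, and 2 lay in neither. The Six2 and Six3 region supplied 12 of the 16 in each list, with 8 in the Six3 peak and 3 in the Six2 peak. The pooled count thus rests mostly on a few wide peaks, and the share over all K27R regions is not given here. As deposited, 6 of 15 K27M peaks and 6 of 18 EZHIP peaks held an island, against 54.1% and 37.3% of all peaks in these lists. After merging these were 5 of 10 and 6 of 11, against 60.4% and 49.1% of all merged peaks, so that the share with an island depended on how neighbours were joined. Peaks with an island had a median width of 43.4 kb in K27M and 22.8 kb in EZHIP, against 2.6 and 5.5 kb for those without, and after merging 79.0 and 27.6 kb against 2.6 and 4.4 kb. A wide peak is more likely to hold an island by its length alone, so this contrast is partly given by width. Of the members' peaks as deposited, 10 of the 15 in K27M met one in EZHIP, and 13 of the 18 in EZHIP met one in K27M, some by only 0.2 kb. After merging, 7 of 10 and 8 of 11 did. The same share over all peaks of the lists is not given here, so nothing particular to the members is read from it.

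The genes that act with these factors were examined as lists. Of 7 cofactor genes, 3 had a start site in a K27R peak, 2 in a K27M peak and none in an EZHIP peak. Dach1 (peaks of 11.6 kb in K27R and 7.2 kb in K27M) and Sobp (34.4 and 5.6 kb) encode nuclear partners of the sine oculis proteins and had a K27M but no EZHIP peak over the start site, and Dach2 on chromosome X had a K27R peak alone there. Around the Sobp and Dach1 start sites EZHIP peaks were present, with 8.0 kb of the 100 kb at Sobp against 5.6 kb in K27M, and 2.4 kb at Dach1 against 7.2 kb. The start sites of the Groucho-type corepressors Tle1, Tle2, Tle3 and Tle4 lay in no list. Tle4 nonetheless had the mark nearby. Of its 100 kb, 49.3 kb lay under K27R peaks, with 37.6 kb under K27M and 26.4 kb under EZHIP peaks. Tle2 had 5.8 kb of K27R cover alone, and Tle1 and Tle3 had no cover. All 4 genes of the eye field list (Pax6, Rax, Lhx2 and Otx2) and all 4 of the ear and placodes (Tbx1, Sox2, Neurog1 and Atoh1) had start sites in all 3 lists. Among 7 kidney genes, Pax2, Ret, Sall1 and Wt1 were in all 3 lists, Gdnf, the growth factor that induces the ureteric bud, was in K27R and K27M, and Pax8 and Osr1 were in none. Of 5 skeletal muscle genes, Pax7 and Myod1 were in all lists, Pax3 in K27R (67.8 kb) and K27M (38.6 kb), and Myog and Myf5 in none. Around the Myog start, K27R peaks still held 69.6 kb of the 100 kb and EZHIP peaks 6.2 kb, without K27M cover. The same window at Myf5 had no cover.

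Over the 27 genes of these lists, start sites lay in K27R peaks for 19, in K27M peaks for 18 and in EZHIP peaks for 14, against the 30.1%, 9.02% and 7.73% of all genes given above. The 4 genes that differed between the inhibitor lists (Dach1, Sobp, Gdnf and Pax3) all had a K27M and no EZHIP peak at the start. Over all genes, 2015 start sites lay in a K27M peak, 1728 in an EZHIP peak and 1476 in both. The start site of no member differed between these lists. Only Six2, Six3 and Six6 had such a peak, with Six2 and Six3 in the same K27R region. No contrast with the pathway genes is read from this. The median cover of 100 kb around the start site was 92.3 kb for K27R, 51.5 kb for K27M and 29.2 kb for EZHIP at the eye field genes, and 78.9, 12.4 and 7.0 kb at the kidney genes. Six3 and Six6, which act in the eye field, kept more cover in both inhibitor lists than these eye field medians (81.8 and 47.8 kb, and 59.2 and 66.6 kb). Of the 4 eye field genes, Lhx2 was above Six6 in K27M (67.4 kb), and Pax6 came close to Six3 in EZHIP (46.0 kb). No other value of these genes was above that of Six3 or Six6 in the same list. Six2, a kidney gene, likewise kept more than the kidney medians, with 57.6 and 24.2 kb. Six2 was grouped by its residual peaks, and the kidney list includes Pax8 and Osr1 without any cover. A value above the kidney medians was thus largely given by the grouping. Of the kidney genes, Pax2 was above Six2 in both lists (100 and 98.4 kb) and Wt1 in EZHIP alone (33.0 kb), and the others were below it. These are descriptions of single genes beside small lists.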

How the data were processed

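H3K27me3 ChIP-Seq peak lists (MNase-digested chromatin) of 3 MEF lines (K27R, K27M and EZHIP, 1 library each, grouped by title) were used. By the study's methods, the authors aligned reads with bowtie1 (1.0.0 in the submitters' processing notes) to mm9 and to a reference genome used for scaling, and called broad peaks with MOSAiCS-HMM. Which library served as background, and whether scaling entered the calls, is not given in the sources used here. The deposited lists hold positions on a 200 bp grid, without counts or scores, so depth is unknown and no interval for it can be given.

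Start sites and bodies came from GENCODE vM1 (NCBIM37, mm9), whose chromosome lengths contain every peak. A peak was taken to hold a start site or island when they shared at least 1 bp. CpG islands were segments scored 17 for CG and -1 otherwise, over 200 bp, with at least 50% G+C and observed to expected CpG above 0.6 (27115 islands, repeats not masked). Analyses used Python 3.11.15, numpy 2.4.6 and scipy 1.17.1, and interval and island code was tested on simulated data.

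The members, lists and measures were chosen with earlier results of these data known. Named genes are the members, the genes of the 5 pathway lists (by count, named by their state), genes with start sites in the members' residual peaks, and the 3 genes nearest to Six3 in cover. One gene of the lists is not reported here. Alternatives were minimum widths of 2000 and 5000 bp, merging at 10000 bp, other start sites and windows, at least 1000 bp of the body covered, and islands of at least 500 bp.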

Additional observations from a re-analysis of the deposited data

How the results depend on the processing

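With 1 library per group and no read counts, neither replicate error nor depth could be assessed, and a region without a peak was only not called at an unknown depth. Of 60 recomputed summary values 53 moved by no more than their limit (1.5 times for a count, a 95% binomial interval over bins for a share). These limits are conventions and measure no spread between libraries. Neighbouring bins of a broad peak are not independent, the Six2 and Six3 windows overlap, and a count of 4 can fall to 3 within the limit. Counts of members with a start site in a peak were 4, 3 and 3 in K27R, K27M and EZHIP under every start-site alternative, the RefSeq starts (added after the data were seen) included. Eya1 and Eya2 had no RefSeq start, so that alternative could not change their state. The alternative of any annotated transcript start used the same GENCODE models. The share of the members' windows covered, 22.1% in K27M and 15.7% in EZHIP, moved to 24.4% and 16.8% with peaks up to 10000 bp apart merged, to 33.3% and 29.8% with 10 kb on each side of the start, and to 19.99% and 13.8% with 100 kb on each side. The EZHIP peaks in the 3 regions fell from 18 to 11 on merging, and the K27M peaks from 15 to 10 (both added after the data were seen). Of 54 values for single members 6 moved, among them the 2.6 kb of EZHIP cover at Eya2 and the 3.0 kb of K27R cover at Six5, which were 0 kb with peaks of at least 5000 bp alone. The gene bodies overlapping a K27M peak fell from 4 to 3 with a minimum width of 2000 bp, since the peak within Eya2 was narrower.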

Other observations

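Genes outside the families with the cover most like that of Six3 were looked for, Six3 being the member with the widest K27M peak over its start site. Likeness was the Euclidean distance between the shares of the 100 kb around the start site covered in the 3 lists, over genes on other chromosomes. The nearest was Neurog3, the proneural factor of endocrine pancreas (chromosome 10), where K27R peaks covered 100 kb, K27M peaks 83.2 kb and EZHIP peaks 48.6 kb, at a distance of 0.0161. Ostm1 and Nr2e1, both on chromosome 10, followed at distances of 0.0384 and 0.0388, with 84.2 and 84.0 kb in K27M and 44.8 and 44.6 kb in EZHIP. Likeness over 3 libraries of 1 mark is a description of peak cover and says nothing of shared function or control.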
